A study of Gallus gallus with 32 samples.

Results

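MicroRNA genes encode short hairpins that are cut from longer primary transcripts and trimmed into mature strands, which guide Argonaute proteins to matching messenger RNAs. In blood they mark lineages: the miR-144 and miR-451 cluster is known from red cells, miR-223 from granulocytes and miR-142 from white cells of many types. Many hairpins lie inside the introns of other genes and are transcribed with them, while others have a promoter of their own. The chicken array used here carries probe sets for many hairpins. It was hybridised with labelled DNA made from total RNA that had passed a purification column, so each value reads transcript that covers the hairpin, whether primary transcript, hairpin or host gene RNA, and says nothing of the mature strand on its own.

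The microRNA genes were taken as every probe set annotated with exactly 1 gene symbol that starts with MIR and a digit or with MIRLET7, leaving out chromosome Z and keeping the brightest probe set of each gene. Of 402 such probe sets, 398 held values, 17 of those lay on chromosome Z, and the other 381 stood for 371 genes, of 9675 named genes and 17894 probe sets with values in all. All 371 matched a RefSeq gene, 370 of them on autosomes and 1, MIR7B, on chromosome W, the sex chromosome that only hens carry. No value filter was used, so all 371 were tested. Blood of 32 broiler chickens was profiled, 1 array per bird, 16 birds fed a standard diet with comfrey (a medicinal herb) and 16 fed the standard diet alone, with 8 males and 8 females on each diet. The labels give no allele or agent beyond the feed, and their age entry, the same for every bird, was not used because its unit is doubtful for broilers. The clotted blood of a chicken is a mixture in which the red cells keep their nuclei.

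Array medians lay between 6.51 and 6.60 on the log2 scale of the deposited values. RMA, named in the submitters' notes, brings arrays to a common distribution. The medians therefore cannot show whether an array stood apart before that step. Markers bore out blood: the globin genes HBAD and HBA1 averaged 13.87 and 13.67. Of the 6 measured thrombocyte genes (thrombocytes being the nucleated platelets of birds), 2 were called higher in males, and the mean of the 6 was 7.17 ± 0.61 in males and 6.71 ± 0.32 in females (SD, n = 16 each). Of the 6, 5 were higher in males, THBS1 by 0.03 (limma adjusted p = 0.904), while CD9 differed by -0.05 (0.866). By title number, birds 1 to 16 held 6 males and 10 females, and birds 17 to 32 held 10 and 6. All of the imbalance lay in the control birds, since comfrey males and females were split evenly between these sets. The part of this imbalance in the thrombocyte difference was not tested. Of 6 measured erythroid genes 1, TAL1, was called lower in males, at 9.24 ± 0.38 in males and 9.63 ± 0.23 in females. The erythroid genes did not move together, as 3 of the 6 were higher in males and none of these was called. Among them was SLC4A1, at 11.60 ± 0.37 in males and 11.32 ± 0.24 in females (limma adjusted p = 0.151). Of 6 T cell genes 1, IL7R, which lies on Z, was called higher. Labels do not say how the birds were housed, so p-values measure the spread between birds as sampled.

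The microRNA probe sets were dimmer than the array as a whole. Their mean signals over 32 birds had a median of 5.41, with a middle range from 3.92 to 6.79, whereas the median over all probe sets was 6.55. At or above that series median stood 104 of the 371. Genes numbered 1000 or higher, names given to hairpins catalogued later, had a median of 6.02, and 91 of these 225 reached the series median. The 146 with lower numbers, let-7 genes included, which hold nearly all the deeply conserved microRNAs, had a median of 4.64, and 13 reached it. Signals of different probe sets also depend on their probes, so these orders are orders of signal and not of RNA amount.

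**Figure D1:**
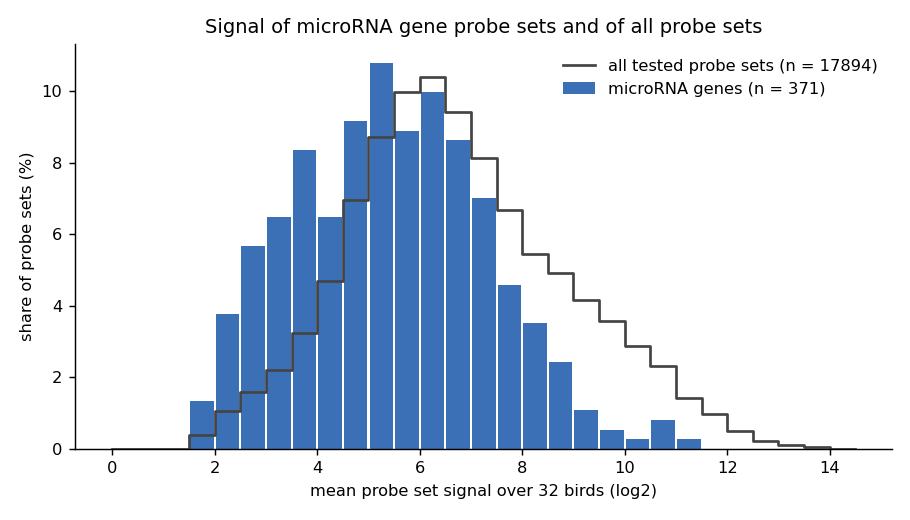
Share of probe sets (vertical axis, percent) by mean signal over 32 birds (horizontal axis, log2, bins of 0.5) for the 371 microRNA genes (bars) and all 17894 tested probe sets (line). The microRNA genes sit lower, with a median of 5.41 against 6.55.

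The brightest were MIR1683 at 11.15, MIR193B at 10.83, MIR365-1 at 10.63, MIR1648 at 10.54 and MIR1804 at 10.06. MIR1661, MIR1724, MIR1644, MIR29C and MIR1668 followed at 9.95, 9.77, 9.23, 9.15 and 9.04. MIR193B and MIR365-1 are neighbours on chromosome 14, and MIR29C belongs to the miR-29 family, known for targeting collagen messages in mammals. The dimmest were MIR1-2, a muscle microRNA gene, at 1.88, MIR29B1 at 1.89, MIR1599 at 1.90, MIR218-2 at 1.96 and MIR202, known from the gonads, at 1.97.

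Of 42 genes listed for their known part in blood, 38 were measured, and their mean signals had a median of 4.94, with a range from 2.26 to 9.02. MIRLET7D at 9.02, MIR16-2 at 7.02 and MIR451B at 6.95 were the 3 above the series median. MIR92A1, of the miR-17 to miR-92 cluster that promotes proliferation, averaged 6.54, and its cluster mates MIR19B1, MIR17, MIR19A, MIR18A and MIR20A averaged 5.49, 2.97, 2.91, 2.72 and 2.41. MIR144, the partner of miR-451 in red cells, averaged 5.76. White cell genes came in at 5.21 for MIR223, 5.10 for MIR142, 5.00 for MIR146A, a brake on inflammatory signalling, and 2.51 for MIR155, which activated lymphocytes and macrophages make. MIR126, an endothelial and megakaryocytic gene, averaged 4.32. None of the 38 was called for sex, diet or their interaction by limma at an adjusted p under 0.05, where 5.35% of all probe sets were called for sex and 0% for diet and for interaction. Unadjusted p-values for sex were 0.012 for MIR126, with a male minus female difference of -0.30 ± 0.11 (SE), and 0.008 for MIRLET7A3, with -0.21 ± 0.08.

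Spread between birds was taken as the residual SD after the 4 diet and sex means. Its median over the microRNA genes was 0.254 on the log2 scale, against 0.231 over all probe sets. MIR1719 was the most variable at 0.749, and ran from 6.99 to 9.49 with a median of 8.28. MIR144 came next at 0.708, with signals from 4.14 to 7.02 and a median of 5.81, then MIR199B at 0.635, MIR181B1 at 0.624, MIRLET7F2 at 0.622, MIR1612 at 0.620, MIR29B2 at 0.576 and MIR29C at 0.575. The tightest were MIR1720 at 0.107, MIR187 at 0.118, MIR1673 at 0.123 and MIR1623 at 0.125. Bright genes were slightly less variable (across the 371 genes, which are not independent replicates, r = -0.149 and rho = -0.241 between mean signal and residual SD).

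Hairpins that lie close together are often cut from 1 primary transcript, so the genes were grouped into 37 clusters of neighbours at most 10 kb apart. These gave 78 pairs, whose residuals were correlated over the 32 birds. The median r was 0.198 and 65 of 78 pairs were positive. For scale, the microRNA genes set against all named genes had a median r of 0.00 with 50.6% positive. The middle range of these r ran from -0.18 to 0.20, and the share of such pairs that would pass a permutation test was not computed. In a two-sided permutation test adjusted over the 78 pairs, 17 pairs passed by Pearson's r, 16 of them positive, and 16 pairs passed by Spearman's rho. In 9 pairs (11.5%) the second gene ranked within the top 1% of all 9674 other named genes by r with the first.

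A pair of couples stood at the top. MIR29C and MIR29B2 on chromosome 26 had r = 0.89 and rho = 0.87, each with a permutation p of 1e-05, the smallest that 100000 permutations can give, and adjusted p = 0.00026. Without the 2 birds farthest from the median r was 0.85, and no other named gene followed MIR29C more closely than its cluster mate. MIR451B and MIR144 on chromosome 19 had r = 0.88 and rho = 0.88 with the same permutation p, r = 0.84 without 2 birds, and again the mate was the gene most like it among 9674. MIR144 ran from 4.14 to 6.70 in comfrey males, 5.16 to 7.02 in control males, 4.69 to 6.86 in comfrey females and 4.68 to 6.13 in control females, so the 4 groups overlapped. The next genes most like MIR144 were ACER3, a ceramidase, at r = 0.68 and EEF1E1, a part of the multi-tRNA synthetase complex, at r = 0.67. Beside the mean of the 6 erythroid genes, MIR451B had r = 0.45 and MIR144 r = 0.43 (unadjusted permutation p = 0.0092 and 0.01258, rho = 0.42 and 0.39). Without 2 birds these were 0.33 and 0.32, and adjusted over the 371 relations computed both had p = 0.253.

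Further down, MIR1732 and MIR196B, which sit beside the HOXA genes on chromosome 2, had r = 0.76 (rho 0.78). MIRLET7D and MIRLET7F2 had r = 0.67 (rho 0.61), and MIRLET7F1 and MIRLET7F2 had r = 0.56 (rho 0.54). MIR454 and MIR301A had r = 0.59 (rho 0.56). In the miR-17 to miR-92 cluster 4 of 15 pairs passed, led by MIR92A1 with MIR19B1 at r = 0.58 (rho 0.61) and MIR20A with MIR18A at r = 0.57 (rho 0.48). All these passed at an adjusted permutation p between 0.00026 and 0.0066 by Pearson's r. Among 9674 named genes ordered by r with the first gene, the second ranked 266, 7, 49, 75, 13 and 51, in the order given. The single negative pair that passed was MIR1565 with MIR9-1, a neural microRNA gene, at r = -0.59 (rho -0.50, adjusted permutation p = 0.0050). Not every cluster held such a pair. In the 6-gene cluster of MIR302 genes and MIR367, known from embryonic stem cells, 0 of 15 pairs passed, r ran from -0.42 to 0.41, and the lowest was between MIR1811 and MIR302A.

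Of the 371 hairpins 313 lay within the span of another gene, 273 of them within a protein-coding gene, and for 160 the surrounding gene was itself measured, giving 161 pairs with 140 host genes. The gene table gives no strand, so some of these hairpins may face away from the gene around them. Over 32 birds the median r with the host was 0.133 and 109 of 161 were positive. By permutation adjusted over the 161 pairs 28 passed, 26 positive and 2 negative, and 23 passed by rho. How many pairs of a microRNA gene and any named gene would pass was not computed. The middle range of r over such pairs was -0.18 to 0.20. The host ranked within the top 1% of all named genes in 8 pairs (4.97%). Mean signals of hairpin and host were related across the 161 pairs (r = 0.462, rho = 0.439; pairs are not independent and share arrays).

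MIR1683, the brightest of all, followed XPNPEP3, a mitochondrial aminopeptidase gene, with r = 0.78 (rho = 0.74, adjusted permutation p = 0.00040 and 0.0011), and XPNPEP3 ranked first among 9674 genes. MIR1661 followed VIM, the intermediate filament gene vimentin of white cells and of bird red cells, with r = 0.71 (rho 0.64) and rank 8. MIR1465 followed UBAC1, a ubiquitin ligase subunit, with r = 0.65 (rho 0.63) and rank 7. MIR199B with CEP85L at r = 0.77, MIR1586 with ARR3 at 0.74, MIR1732 with HOXA9 at 0.65, MIR1789 with ZNF536 at 0.64 and MIR1740 with RALGAPA2 at 0.63 passed too, but their hosts ranked 54, 85, 957, 557 and 93 among the genes most like the hairpin. The lowest correlations were MIR1644 with XYLT1 at r = -0.51 (adjusted permutation p = 0.023), MIR1768 with EPC1 at -0.46 (0.043) and MIR1656 with MAP4K4 at -0.44 (0.061).

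**Figure D2:**
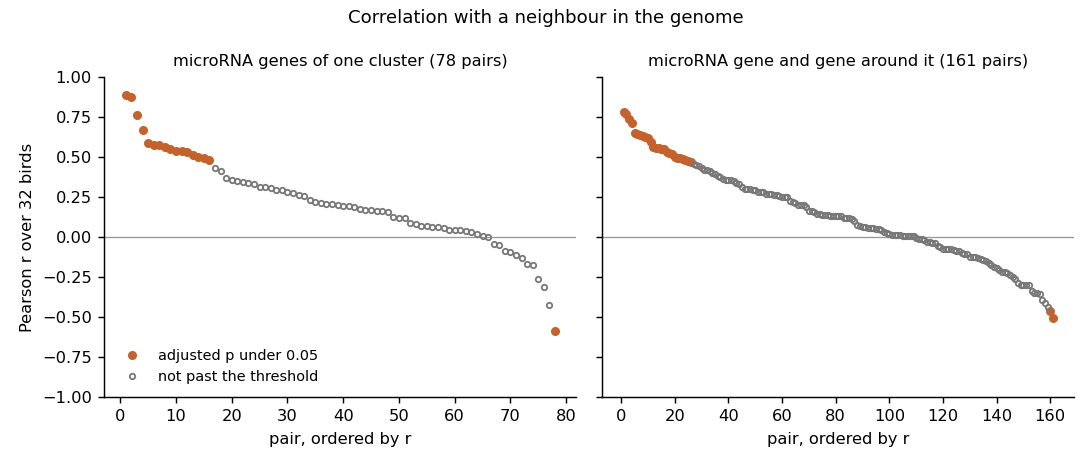
Pearson r over 32 birds (vertical axis), after taking off diet and sex means, for 78 pairs of microRNA genes in 1 cluster (left) and 161 pairs of microRNA gene and gene around it (right), each ordered by r. Filled points passed at an adjusted permutation p under 0.05: 17 of 78 and 28 of 161.

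A few microRNA genes followed marker genes of blood cell types. At a permutation p under 0.05, adjusted over the 371 relations computed for each list, Pearson's r passed for 10 genes with the thrombocyte mean (6 positive, 4 negative), 5 with the erythroid mean (4 positive, 1 negative) and 1 with the T cell mean. The share of all named genes that would pass was not computed. By the cut of r over 0.5 given below, the microRNA genes had a lower share than named genes for every list. MIR1653 on chromosome 9 followed the mean of the 6 thrombocyte genes (ITGB3, GP9, GP1BB, CD9, F13A1 and THBS1) with r = 0.93 and rho = 0.92, each with the smallest permutation p, 1e-05, and r = 0.91 without 2 birds. The adjusted p was 0.00186 for Pearson's r. MIR1653 averaged 7.11 in males and 7.13 in females of birds 1 to 16, by the number in their titles. In birds 17 to 32 it averaged 7.92 and 7.35. Its r was not computed with this shift taken off, and the part of the shift was not tested. The 3 named genes most like MIR1653 were INF2, an actin regulator, PDLIM1, a cytoskeletal adaptor, and HPSE, the heparanase of platelets, with r of 0.94, 0.93 and 0.93. MIR193B (r = 0.71, rho = 0.71) and MIR1559 (r = 0.70, rho = 0.66) also followed the thrombocyte mean, with permutation p of 2e-05 and 1e-05. MIR1559 averaged 5.17 in males and 4.93 in females of birds 1 to 16, and 5.77 and 5.37 in birds 17 to 32. These r, too, were given without taking off such a shift. MIR1559 lies within ITGAV, an integrin gene, which it followed with r = 0.62 (rho = 0.58, adjusted permutation p = 0.0031) and rank 180. Among the negative ones was MIR1696, with r = -0.58 and rho = -0.71 (adjusted permutation p = 0.028 and 0.0025). The r with the thrombocyte mean was over 0.5 for 7 of 371 microRNA genes (1.89%), against 3.92% of 9669 named genes. In whole blood fewer thrombocytes and less RNA per thrombocyte cannot be told apart. With the mean of the 6 erythroid genes, MIR1643 (r = 0.63, rho = 0.63) and MIR128-1 (r = 0.63, rho = 0.57) were closest, with permutation p of 7e-05 and 6e-05, and MIR1661 had r = 0.59 (rho = 0.54, p = 0.00051). Here r was over 0.5 for 4 of 371 (1.08%), against 1.80% of named genes. With the T cell mean MIR199B was closest, with r = 0.63 and rho = 0.63 (adjusted permutation p = 0.037 and 0.056). It also passed with the thrombocyte mean, at r = 0.55 and rho = 0.60 (adjusted permutation p = 0.049 and 0.024), so it was not particular to T cell genes. With the T cell mean r was over 0.5 for 2 of 371 (0.539%), against 4.66% of named genes. MIR142 was most like CXCR4, the chemokine receptor of white cells, with r = 0.82, and MIR21 was most like MIR155, with r = 0.66, which was 0.48 without 2 birds.

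**Figure D3:**
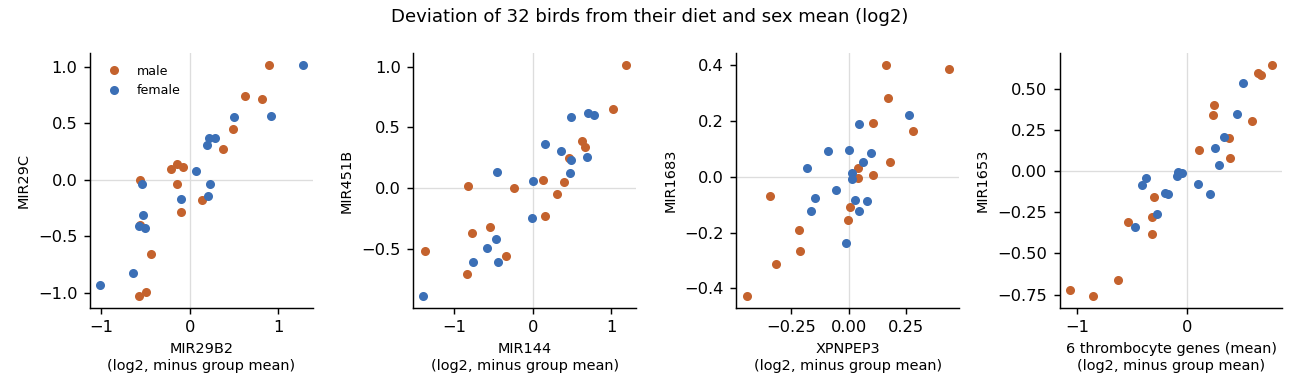
Each point is 1 bird, as its deviation from the mean of its diet and sex (log2): MIR29C by MIR29B2, MIR451B by MIR144, MIR1683 by its host XPNPEP3, and MIR1653 by the mean of 6 thrombocyte genes, with r of 0.89, 0.88, 0.78 and 0.93. Colours mark males and females.

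Between the sexes, 15 of the 371 were called by limma at an adjusted p under 0.05 over all probe sets (4.04%, against 5.35% of all probe sets). MicroRNA genes called lower in males numbered 14, whereas 1.83% of all probe sets and 1.12% of autosomal probe sets with 1 gene symbol were called lower. Called higher in males was 1 gene, whereas 3.53% of all and 1.82% of autosomal probe sets were called higher. Regardless of calls, 264 of 371 differences (71.2%) lay below 0, against 59.2% of all probe sets and 55.9% of autosomal ones. The median difference, male minus female, was -0.06, against -0.02 over all probe sets and -0.01 over autosomal ones. Among the 104 microRNA genes at or above the series median 79.8% lay below 0, against 50.7% of autosomal probe sets at or above it. Among the other 267, which were dimmer, 67.8% did, against 61.5% of dimmer autosomal probe sets. Above that median the sets were not matched for signal. The 371 genes together averaged 5.40 ± 0.07 in males and 5.46 ± 0.06 in females (SD, n = 16 each), with a range from 5.28 to 5.51 in males and from 5.38 to 5.60 in females.

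MIR7B, a miR-7 gene on the W chromosome that roosters lack, had the largest difference. Its signals had a minimum, median and maximum of 2.72, 4.27 and 5.15 in males, and of 4.79, 4.98 and 5.60 in females. Below every female stood 13 of 16 males, yet the highest male exceeded the lowest female. Male minus female was -0.99 ± 0.17 (SE; limma adjusted p = 0.000119). Other hairpins of the miR-7 family resemble it, and whether their transcripts reach its probes was not tested. As roosters lack W, the male signal is not read as MIR7B transcript. On comfrey the sex difference was -1.29 (limma adjusted p = 0.000385), and on the control diet -0.70, which did not pass (limma adjusted p = 0.129). Females ran from 4.79 to 5.60 on comfrey and from 4.84 to 5.59 on control, much alike. Males ran from 2.72 to 4.68 on comfrey and from 3.30 to 5.15 on control, so the diets differed in the signal of birds without the gene.

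MIR1668 on chromosome 34 was the autosomal gene with the smallest p. Its signals had a minimum, median and maximum of 8.56, 8.88 and 9.13 in males, and of 8.93, 9.21 and 9.44 in females, so that 9 of 16 males lay below every female. The difference was -0.32 ± 0.06 (SE; limma adjusted p = 0.000609). It lies within DIP2B, a gene of the disco-interacting protein family, which differed by -0.05 (limma adjusted p = 0.833) and which it did not follow between birds (r = 0.05).

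MIR1620 had 2.72, 3.19 and 3.86 as lowest, median and highest signal in males, and 3.19, 3.58 and 4.34 in females, with a difference of -0.43 ± 0.11 (limma adjusted p = 0.0080). MIR375, known from pancreatic islets and other endocrine cells, had 5.40, 6.06 and 6.38 in males, and 6.05, 6.37 and 6.80 in females, with a difference of -0.33 ± 0.08 (adjusted p = 0.0040). MIR32 had 4.82, 5.22 and 5.46 in males, and 5.11, 5.54 and 5.88 in females, with a difference of -0.33 ± 0.08 (adjusted p = 0.0059). The groups overlapped in all 3, with 8, 8 and 4 males below every female. The sexes differed in the same direction for MIR1768 at -0.30, MIR1721 at -0.29, MIR1460 at -0.26, MIR1670 at -0.25, MIR1626 at -0.24, MIR1688 at -0.24 and MIR1717 at -0.23, at limma adjusted p between 0.0048 and 0.0426. MIR1551 at -0.22 and MIR187 at -0.17 completed the 14. Standard errors of these 9 lay between 0.05 and 0.09.

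MIR1683 was the only gene called higher in males. Its signals had a minimum, median and maximum of 10.88, 11.29 and 11.71 in males, and of 10.71, 11.04 and 11.18 in females, and 10 males exceeded every female. The difference was 0.27 ± 0.07 (SE; limma adjusted p = 0.0176). Its host XPNPEP3 moved beside it, at 10.19 ± 0.24 in males and 9.96 ± 0.15 in females, a difference of 0.23 ± 0.07 that missed the threshold (limma adjusted p = 0.051). Its r with the thrombocyte mean was 0.48 (rho = 0.34, permutation p = 0.0058 and 0.060), and 0.35 without 2 birds; the part of thrombocytes in its difference was not tested. Over all 15 called genes r with the thrombocyte mean ran from -0.43 to 0.48, and it was below 0 for 10 of them. With the erythroid mean it ran from -0.54 (MIR1768) to 0.15 and was below 0 for 12, and with the T cell mean from -0.29 to 0.27 and below 0 for 11. Over all 371 microRNA genes the median r was -0.12 with the thrombocyte, -0.09 with the erythroid and -0.15 with the T cell mean. An r below 0 was thus common among all of them and not particular to the called genes. The part of these cell types in the sex calls was not tested.

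MIR1653 and MIR1559, which followed the thrombocyte mean, did not pass. MIR1653 averaged 7.61 ± 0.50 in males and 7.21 ± 0.22 in females, a difference of 0.40 ± 0.13 (SE; limma adjusted p = 0.073). It was -0.02 in birds 1 to 16 (6 males, 10 females) and 0.57 in birds 17 to 32 (10 males, 6 females). MIR1559 averaged 5.54 ± 0.45 in males and 5.10 ± 0.42 in females, a difference of 0.45 ± 0.15 (adjusted p = 0.085). ITGAV, around MIR1559, differed by 0.63 ± 0.21 (adjusted p = 0.072). MIR193B, which also followed that mean, differed by -0.23 (unadjusted p = 0.077). MIR10A, a HOX cluster gene, differed by 0.21 ± 0.07 (adjusted p = 0.062) and MIR302D by 0.29 ± 0.12 (adjusted p = 0.216). The MIR10A signal was near the dimmest of the array, at 2.08 in males and 1.90 in females of birds 1 to 16. In birds 17 to 32 it averaged 2.18 and 1.99.

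**Figure D4:**
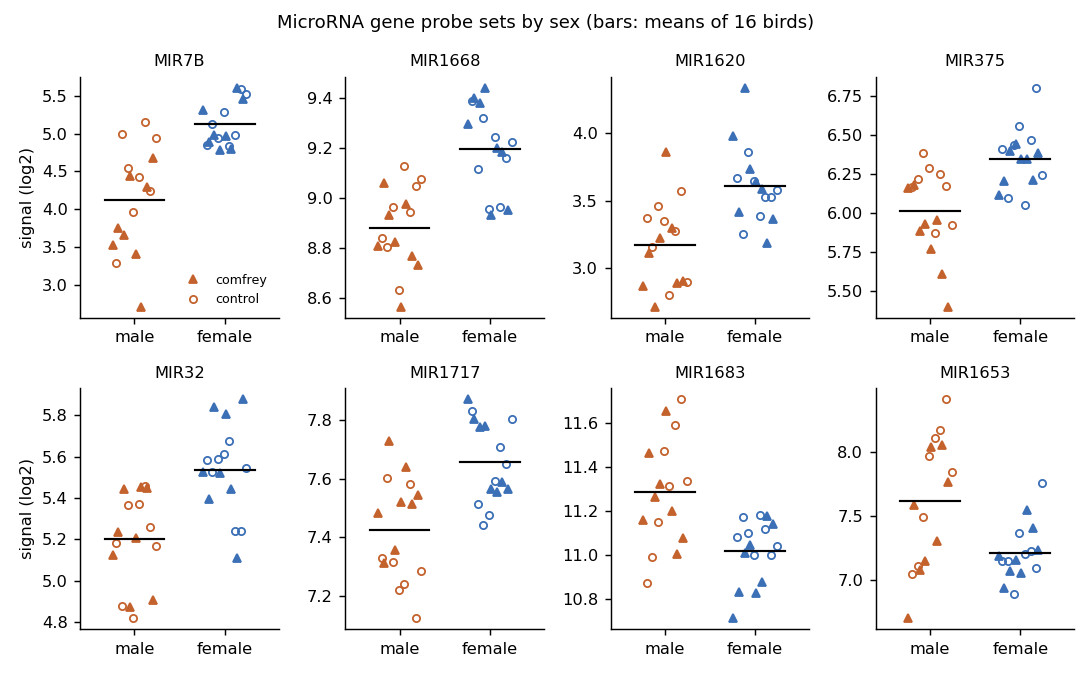
Signal (log2) of 6 microRNA genes called lower in males, of MIR1683, called higher, and of MIR1653, which missed the threshold, for 16 males (left) and 16 females (right). Triangles are birds on comfrey, circles birds on the control diet, and bars are means of 16 birds. The groups overlap in every panel.

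Within 1 diet, 5 microRNA genes were called between comfrey males and comfrey females (3.13% of all probe sets were): MIR7B, MIR1668, MIR375, MIR1774 and MIR1620, all lower in males. Between control males and control females 4 were called (2.75% of all): MIR1717, MIR1808 and MIR1617, lower in males, and MIR10A, higher. MIR10A was dim, and its highest control male, bird 27 at 2.80, stood apart from the next at 2.33. Control males were mostly among birds 17 to 32 and control females mostly among birds 1 to 16, whereas comfrey birds were evenly split. The part of this in the control calls was not tested. With the set of birds (1 to 16 or 17 to 32) as covariate the control list held 0 genes. With 1 bird left out the comfrey list held 4 to 7 genes and the control list 1 to 6, and shares of all probe sets are not given for those fits. Whether the sex difference depends on diet is what the interaction tests, and none of these genes passed it. Among birds 1 to 16 and birds 17 to 32, taken by the number in their titles, the 13 called genes with the largest differences kept their sign in both sets. MIR7B, for example, differed by -1.05 in the first set (6 males, 10 females) and by -1.09 in the second (10 males, 6 females). Both sets are parts of the 32 birds that gave the calls, so the kept signs are no independent check.

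For comfrey against control, none of the 371 microRNA genes was called by limma, nor was any probe set (0% of all). The lowest adjusted p among them was 0.573. At an unadjusted p under 0.05 stood 35 of 371 (9.43%), against 7.99% of all probe sets. Of these 28 were lower and 7 higher on comfrey. As between the sexes, the differences leaned one way: 262 of 371 (70.6%) lay below 0, against 52.6% of all probe sets, with a median of -0.06 against -0.01. Among the 104 microRNA genes at or above the series median 78.8% lay below 0, whereas 38.7% of autosomal probe sets at or above it did. These sets were not matched for signal above that median. The upper quartile of mean signal was 6.79 for all microRNA genes and 8.14 for all probe sets. Among the other 267, which were dimmer, 67.4% lay below 0, much like the 67.3% of dimmer autosomal probe sets. The mean of the 371 was 5.41 ± 0.06 in comfrey birds and 5.46 ± 0.07 in control birds (SD, n = 16 each). The sex and diet comparisons use the same 32 arrays.

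MIR1640 on chromosome 15 came nearest to a diet call. Its signals in comfrey birds had a minimum, median and maximum of 6.42, 6.80 and 7.34, and in control birds of 6.80, 7.12 and 7.70. Of these, 8 of 16 comfrey birds lay below every control bird, and 2 control birds above every comfrey bird. Comfrey minus control was -0.33 ± 0.08 (SE; unadjusted p = 0.000215, limma adjusted p = 0.573), at -0.36 in males and -0.31 in females. In birds 1 to 16 it was -0.19, and in birds 17 to 32 it was -0.48. Genes most like MIR1640 were PLEKHF1, an endosomal protein gene, RASD1, a Ras-like gene induced by glucocorticoids in mammals, and COL6A2, a collagen chain gene, with r of 0.77, 0.73 and 0.72.

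The next largest by p were MIR1467 at -0.36 ± 0.11, MIR302D at -0.33 ± 0.12, MIR1776 at -0.29 ± 0.11 and MIR1801 at -0.13 ± 0.05. On the other side of 0 lay MIR1465 at 0.16 ± 0.06, MIR1782 at 0.14 ± 0.06, MIRLET7D at 0.20 ± 0.09, MIR22 at 0.31 ± 0.14 and MIR1717 at 0.12 ± 0.06, with limma adjusted p between 0.573 and 0.619 for all 9. UBAC1, around MIR1465, differed by 0.15 ± 0.06 (adjusted p = 0.614). MIR22, known from red cell maturation in mammals, averaged 6.01 ± 0.41 in comfrey birds and 5.70 ± 0.39 in control birds, and its groups overlapped throughout.

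Within males 0 of 371 were called between diets by limma (0% of all probe sets), and within females 0 as well (0.00559% of all). Unadjusted p was under 0.05 for 35 in males (9.43%, against 10.3% of all probe sets) and 17 in females (4.58%, against 3.93%). MIR1774 on chromosome 28 had the smallest p in males. It ran from 7.60 to 8.15 in comfrey males and from 8.10 to 8.57 in control males, with medians of 8.00 and 8.34, and from 8.00 to 8.56 in comfrey females and from 8.03 to 8.43 in control females. Comfrey minus control was -0.39 ± 0.09 in males (unadjusted p = 0.000114, limma adjusted p = 0.414) and 0.04 ± 0.09 in females. Within each sex the control birds, unlike the comfrey birds, were unevenly split by title number, and the part of this was not tested. Its host SAFB2, a nuclear matrix gene, did not follow it (r = 0.26, adjusted permutation p = 0.321).

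The interaction, which is the male diet difference less the female one, was called for 0 of 371 genes and for 0% of all probe sets, the lowest adjusted p among the microRNA genes being 0.800, with 13 genes at an unadjusted p under 0.05. MIR1774 led with -0.44 ± 0.13 (SE; unadjusted p = 0.00152). MIR451B had -0.96 ± 0.33 (unadjusted p = 0.00697): its mean was 6.65 ± 0.52 in comfrey males and 7.15 ± 0.43 in control males, and 7.22 ± 0.60 in comfrey females and 6.76 ± 0.37 in control females (SD, n = 8 each). Its cluster mate MIR144 was at 5.52 ± 0.79 in comfrey males and 5.99 ± 0.73 in control males, and 6.08 ± 0.76 in comfrey females and 5.44 ± 0.52 in control females, an interaction of -1.12 ± 0.48 (unadjusted p = 0.026). Since the 2 genes follow each other between birds, they count as 1 observation and not as 2. The uneven split of control males and females by title number also enters the interaction, and its part was not tested. The erythroid mean was 11.19 ± 0.18 in comfrey males and 11.22 ± 0.28 in control males, and 11.28 ± 0.17 in comfrey females and 11.25 ± 0.20 in control females; its part in these values was not tested. MIR365-1 at -0.34 ± 0.13, MIR2129 at -0.28 ± 0.11 and MIR1580 at -0.83 ± 0.34 leaned the same way, and MIR1617 at 0.62 ± 0.19, MIR1808 at 0.52 ± 0.20, MIR1696 at 0.28 ± 0.12, MIR1710 at 0.50 ± 0.24 and MIR1804 at 0.26 ± 0.13 the other, none past the threshold (limma adjusted p between 0.812 and 0.861).

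**Figure D5:**
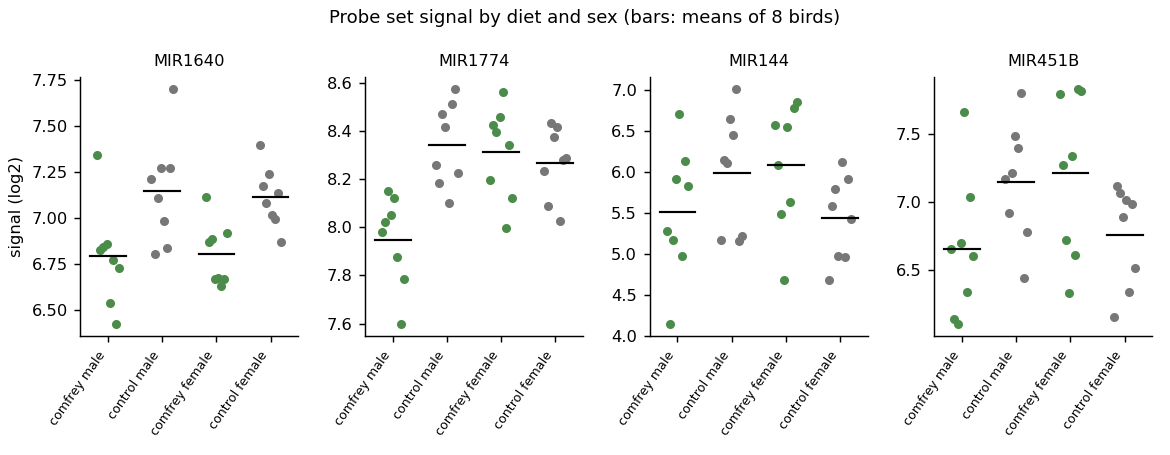
Signal (log2) of MIR1640, MIR1774, MIR144 and MIR451B in comfrey males, control males, comfrey females and control females, 8 birds each, with bars at the means. The comfrey mean of MIR1640 lies below the control mean in both sexes, that of MIR1774 in males, and those of MIR144 and MIR451B in males but not in females; none of these differences passed the threshold.

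The proteins that make and use microRNAs were measured for 20 of 32 listed genes, and 0 of 20 were called for sex (5.35% of all probe sets), diet or interaction (0% of all for each) by limma. DICER1, which cuts the hairpin, averaged 11.47 ± 0.19 in comfrey birds and 11.49 ± 0.19 in control birds. AGO2, the Argonaute that holds the mature strand and also cuts the miR-451 hairpin, averaged 11.76 ± 0.11 in comfrey birds and 11.73 ± 0.14 in control birds. DROSHA and DGCR8, which free the hairpin in the nucleus, averaged 8.25 ± 0.27 and 10.27 ± 0.14 on comfrey, and 8.24 ± 0.37 and 10.23 ± 0.11 on control. The largest diet difference of the 20 was that of DDX5, a helicase of the nuclear complex, at 6.07 ± 0.39 for the comfrey birds and 5.50 ± 1.13 for the control birds (SD, n = 16 each), with an unadjusted p of 0.057.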

How the data were processed

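RNA of 32 blood samples was labelled and hybridised to 1-colour Affymetrix whole-transcript arrays, 1 bird per array. The submitters' processing notes name GCOS 1.1.1 and RMA, and the deposited values, log2 signals per probe set, were used as the authors gave them; scanner files were not used here, so background correction and slide were not varied. Of 20804 probe sets 2910 were blank on every array and 17894 were tested. Gene names came from the array's platform annotation, updated through RefSeq gene IDs (assembly GRCg7b), and positions from that table, which gives no strand; no coordinates or sequences are printed. Signals have no counts behind them, so the number of birds limits precision.

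Differences were fitted with limma 3.58.1 (R 4.3.3) on all probe sets and all birds, with diet and sex as terms or a mean for each diet and sex, Benjamini-Hochberg adjusted over all probe sets and called under 0.05. On simulated data with all 17894 probe sets the sex fit recovered 32%, 90% and 96% of log2 differences of 0.25, 0.5 and 1, and the diet fit 26%, 86% and 96%. The simulated noise was normal and independent between probe sets and birds, without shifts between blocks of birds. Recovery in the real data can therefore differ. Correlations used residuals from the 4 means over 32 birds with 100000 permutations (numpy 2.4.6). Clusters and hosts were taken by position alone, whereas same-strand neighbours had been planned. Relations with marker means, tested for 371 genes against each of 3 lists, were added after seeing the data. Of the genes, 10 had more than 1 probe set, and 7 had values identical to those of another probe set on the array, of whichever gene.

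Genes were named by rule: called genes up to 12 per direction, filled to 5 by p; the 10 brightest and 5 dimmest; the 8 most and 4 least variable; the blood list; 8 highest and 3 lowest pairs; and the 3 genes most alike. Where the rule stopped at 12, the other 2 called genes were named too. The members and lists were chosen with earlier results of these data known. The number in a bird's title named it and paired nothing.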

Additional observations from a re-analysis of the deposited data

Results flagged for a closer look

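In groups of 8 birds, 2 of the 140 group and gene combinations held a bird far from the others of its group, where chance gives about 7 (1 in 20). In control males, the highest MIR10A signal was 2.80 (bird 27), with the next bird at 2.33. In control females, the lowest MIR1626 signal was 4.68 (bird 25), with the next at 5.07.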

How the results depend on the processing

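Across 10 other settings, the 15 sex calls numbered between 10 (dim probe sets left out, which leaves 104 of the 371 genes) and 24 (first residual component as covariate, 21 of them lower in males and all 15 among them). Leaving out 1 bird at a time gave 11 to 19 sex calls, 4 to 7 on comfrey and 1 to 6 on control, where without control replicate 1, 3, 10 or 11 it was 1 and without 13, 14, 15 or 16 it was 2. Sex calls on comfrey, 5, became 9 with array weights, 8 with bird number and 15 with the first residual component as covariate. Sex calls on control, 4, became 1 with bird number and 0 with the block of birds as covariate. The cause was not tested in any of these. Shares of all probe sets called in the same fits are not given beside these sex counts. The counts therefore cannot show a change particular to the microRNA genes. With the first residual component, 2 genes were called for diet (0.212% of all probe sets), MIR1640 at -0.33 (limma adjusted p = 0.0173) and MIR1600, named after its value was seen, at -0.23; in males 1 was called, MIR1600. Without the 2 birds farthest from the median, host pairs that passed fell to 18, against 28 with all birds. Diet in females and the interaction stayed at 0 calls in every setting run, and with 1 bird left out the diet calls stayed at 0 too. No named difference changed sign under these settings or with 1 bird left out; within birds 1 to 16 alone, the sex difference of MIR1653 did (-0.02). Leaving out a single bird was enough to lose the sex call of MIR1688, MIR1721 and MIR1768. This happened in 19, 14 and 14 of the 32 fits with 1 bird left out (limma adjusted p up to 0.072, 0.067 and 0.068). MIR1768 also lost it after quantile normalization (0.0627) and with the block of birds (0.0946), and MIR1688 with bird number (0.0504) and with the block (0.0720). MIR1653 gained a sex call without dim probe sets (0.0439), with bird number (0.0382) and with the first residual component (0.0435), and MIR1559 with the last (0.0083). MIR1653 stayed uncalled in 7 settings, with differences from 0.27 to 0.41 (limma adjusted p from 0.071 to 0.151). MIR1559 stayed uncalled in 8, with differences from 0.32 to 0.47 (limma adjusted p from 0.055 to 0.194). No paired analysis was possible because the labels number each bird once. Hosts on either strand were not run as an alternative, since no strand was given.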
